A study of Rattus norvegicus with 28 samples.

Results

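The genes that load and display peptides for T cells were followed in the rat spinal cord after spinal cord injury (SCI) and after transplantation of neural precursor cells (NPCs). Members were chosen by name alone, with no measured value. They are the non-control features of the array whose annotated gene name starts with RT1- or Tapbp, or is Tap1, Tap2, B2m, Cd74 or Ciita. This gave 41 of the 35469 features, which rest on 59 probes. Of these, 26 are class I heavy chains (12 of the A and CE loci and 14 of the EC, Cl, M, N, S and T loci), 1 is the class I light chain B2m and 4 supply peptide to class I (Tap1, Tap2, Tapbp and Tapbpl). A further 5 are class II chains (RT1-Ba, RT1-Bb, RT1-Da, RT1-Db1 and RT1-Db2), 4 load or chaperone class II (Cd74, RT1-DMa, RT1-DOa and RT1-DOb), and the last is Ciita, the class II transactivator. RT1-DMb was not analysed here.

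RT1 is the major histocompatibility complex (MHC) of the rat. Class I molecules pair a heavy chain with beta-2-microglobulin and show peptides from inside the cell to CD8 T cells. The peptides are cut by the proteasome, pumped into the endoplasmic reticulum by the Tap1 and Tap2 transporter, and fitted into the groove with the help of tapasin, the product of Tapbp. Class II molecules are alpha and beta chain pairs that show peptides from the endocytic route to CD4 T cells. Their groove is plugged by the invariant chain Cd74 until DM exchanges the plug for peptide, a step that DO restrains, and their transcription depends on Ciita. In the healthy spinal cord both classes are scarce on neurons and resting glia, and microglia and infiltrating leukocytes are known to raise them when the tissue is inflamed.

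RNA came from adult female Sprague Dawley rats, from 1.5 cm of thoracic cord around the lesion, with 4 arrays in each of 7 groups. T0 was uninjured cord by the methods, although the labels name it sham. T1, T2, T4 and T8 were cords taken 1, 2, 4 and 8 weeks after a 250 kdyn contusion at thoracic level 8. T1_NPC received NPCs right after the contusion and was taken at week 1, and T2_NPC received them at week 1 and was taken at week 2. The NPCs had been grown from injured spinal cords of adult rats, so graft and host transcripts were read by the same probes. The labels place the segment at T6-T10, except for T2_NPC at T7-T10. By the methods, injured controls of the transplantation experiment were injected with cell-free medium, and tacrolimus, an immunosuppressant that acts on T cells, was given at 1 mg/kg from the day before transplantation. The methods list it under the care of all animals, and how it was timed in animals without a transplant is not given in the sources used here. Levels are given as deposited log2 values after quantile normalization between arrays, and a member was called a differentially expressed gene (DEG) where limma gave an adjusted p under 0.05 (Benjamini-Hochberg, over all 35469 features).

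The depositors supplied each array as a scanner output and as a column of the normalized value table, and for 16 of the 28 arrays the pair name different samples. The samples used here are those of the value table. When the scanner outputs kept the samples they were deposited under, no member was called at T1, T2, T4 or T8 against T0. The share of all features called in that case is not given here, so whether the loss was particular to the members is not shown. On the 12 arrays for which both name the same sample (T0, T2 and T8 with 2 each, T1 and T4 with 1 each, all of the first scan session, and the 4 of T2_NPC), 29, 32, 30 and 33 members were called at T1, T2, T4 and T8 relative to T0, with the single arrays assumed to vary like the other groups. Of these, 26, 30, 28 and 31 were higher. Under that setting 30.8%, 33.6%, 26.6% and 37.5% of all features were called. The time course lay on slides of a first and a second scan session, T1_NPC on 1 slide of its own and T2_NPC on another, both scanned in the third session. Transplantation and slide therefore cannot be told apart. From 74.5% to 82.7% of spots were well above background on an array. Of the 41 members, 34 were well above background on all 28 arrays, 6 on some, and RT1-T24-2 on none. T8 replicate 3, with high class II levels, and T1_NPC replicate 2, with low ones, stood apart, and results that rest on them are given with and without them. The class I genes are near-identical copies, and a probe named for one may bind transcripts of another. A run of at least 20 bases was shared by 5 of the 1686 probe pairs from different members, and all 9 members in such pairs were class I heavy chains. In bulk tissue, fewer cells of a type and less RNA per cell cannot be told apart.

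The promoters of the members are shown first, because class II and class I genes are controlled through short motifs that can be read in them. RefSeq promoter sequences (GRCr8, a Brown Norway reference, from 250 bases before to 50 after the gene start) were matched by symbol for 34 of the 41 members. Of these, 31 lie on chromosome 20, where the MHC is, and 1 each on chromosomes 3 (B2m), 4 and 18. The X box and the Y box are bound by the RFX and NF-Y factors that recruit the Ciita protein. The X box core GCAACNGAT, searched on both strands, was found in 4 of the 34 promoters and in 0.394% of all 33469. The Y box CTGATTGG was found in 14 of the 34 and in 3.50% of all. Both stood in the promoters of RT1-Da, RT1-Db1 and RT1-Db2, against 10 promoters, or 0.0299%, in the whole table. In the class II windows, capitals mark the X box core and, further downstream, the Y box.
RT1-Da (chr20:4515313-4515380, plus strand): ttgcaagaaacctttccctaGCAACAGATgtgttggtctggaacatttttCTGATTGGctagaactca
RT1-Db1 (chr20:4560228-4560294, minus strand): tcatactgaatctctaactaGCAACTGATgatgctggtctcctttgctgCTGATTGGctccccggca
RT1-Db2 (chr20:4541698-4541763, minus strand): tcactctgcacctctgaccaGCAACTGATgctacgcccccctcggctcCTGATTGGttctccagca
RT1-DOb (chr20:4627568-4627656, minus strand): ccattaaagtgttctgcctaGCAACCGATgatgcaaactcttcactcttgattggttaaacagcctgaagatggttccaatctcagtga
These windows lie 102 to 35, 132 to 66, 168 to 103 and 133 to 45 bases before the gene starts. The RT1-DOb window has the X box core and no exact match to the Y box. RT1-Ba and RT1-Bb have the Y box and no exact match to the X box core in their 300 bases.

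Some class I genes carry another arrangement. The NF-kB form GGGATTCCC was found in 5 of the 34 promoters, all of A and CE loci, and in 0.365% of all promoters. For RT1-A2, RT1-CE16 and RT1-CE10, capitals mark that site and, where it is present, the Y box read on the opposite strand. RT1-CE10 is printed because its level did not follow the other A and CE genes.
RT1-A2 (chr20:4872678-4872832, plus strand): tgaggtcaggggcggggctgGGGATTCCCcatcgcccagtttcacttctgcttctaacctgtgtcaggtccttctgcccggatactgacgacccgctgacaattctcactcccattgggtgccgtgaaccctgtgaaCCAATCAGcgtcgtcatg
RT1-CE16 (chr20:3265444-3265593, minus strand): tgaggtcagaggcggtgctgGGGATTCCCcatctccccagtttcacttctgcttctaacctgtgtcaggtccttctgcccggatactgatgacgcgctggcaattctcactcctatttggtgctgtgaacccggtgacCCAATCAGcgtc
RT1-CE10 (chr20:3385039-3385192, minus strand): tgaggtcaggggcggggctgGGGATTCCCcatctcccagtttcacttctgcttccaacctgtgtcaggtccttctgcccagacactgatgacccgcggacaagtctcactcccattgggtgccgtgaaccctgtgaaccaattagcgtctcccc
The first and second of these hold both motifs and the third holds the NF-kB form alone. RT1-CE1, RT1-CE2, RT1-CE3, RT1-CE6 and RT1-CE12 had no exact match to either motif. Unlike RT1-CE10, they were upregulated at every time point after injury. The interferon-stimulated response element (ISRE) AAANNGAAA is less rare. It was found in 10 of the 34 promoters and in 11.8% of all, among them all 4 peptide supply genes and B2m. The gamma-activated sequence TTCNNNGAA was found in 1 of the 34, RT1-M3-1, and in 8.87% of all. Capitals mark the ISRE in the windows of B2m and Tap1, where Tap1 holds it on the opposite strand.
B2m (chr3:129549161-129549209, plus strand): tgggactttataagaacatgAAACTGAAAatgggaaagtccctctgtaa
Tap1 (chr20:4668636-4668684, minus strand): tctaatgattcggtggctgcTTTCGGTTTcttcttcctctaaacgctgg
A match is a string of letters in a reference strain and does not show that a factor bound there in these cords.

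Antigen presentation genes were raised in the injured cord at every time point. At T1, 30 of the 41 members were upregulated and none was downregulated, where 19.1% of all features were called higher and 25.1% lower. The count was 33 higher and none lower at T2 (background 17.7% and 22.2%). It was 31 higher and none lower at T4 (17.5% and 21.0%). At T8, 32 were higher and 1, RT1-M10-1, was lower (18.2% and 21.5%), and that lower call was lost when any 1 of 5 of the 8 arrays was left out. The members' median difference from T0 (log2 scale) was 1.44 one week after injury and 1.56, 1.36 and 1.95 at T2, T4 and T8, where the median of all features lay between -0.10 and -0.04. The last was 1.47 without T8 replicate 3. The 4 comparisons share the T0 arrays. The plot of differences from T0 shows the members by role.

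**Figure D1:**
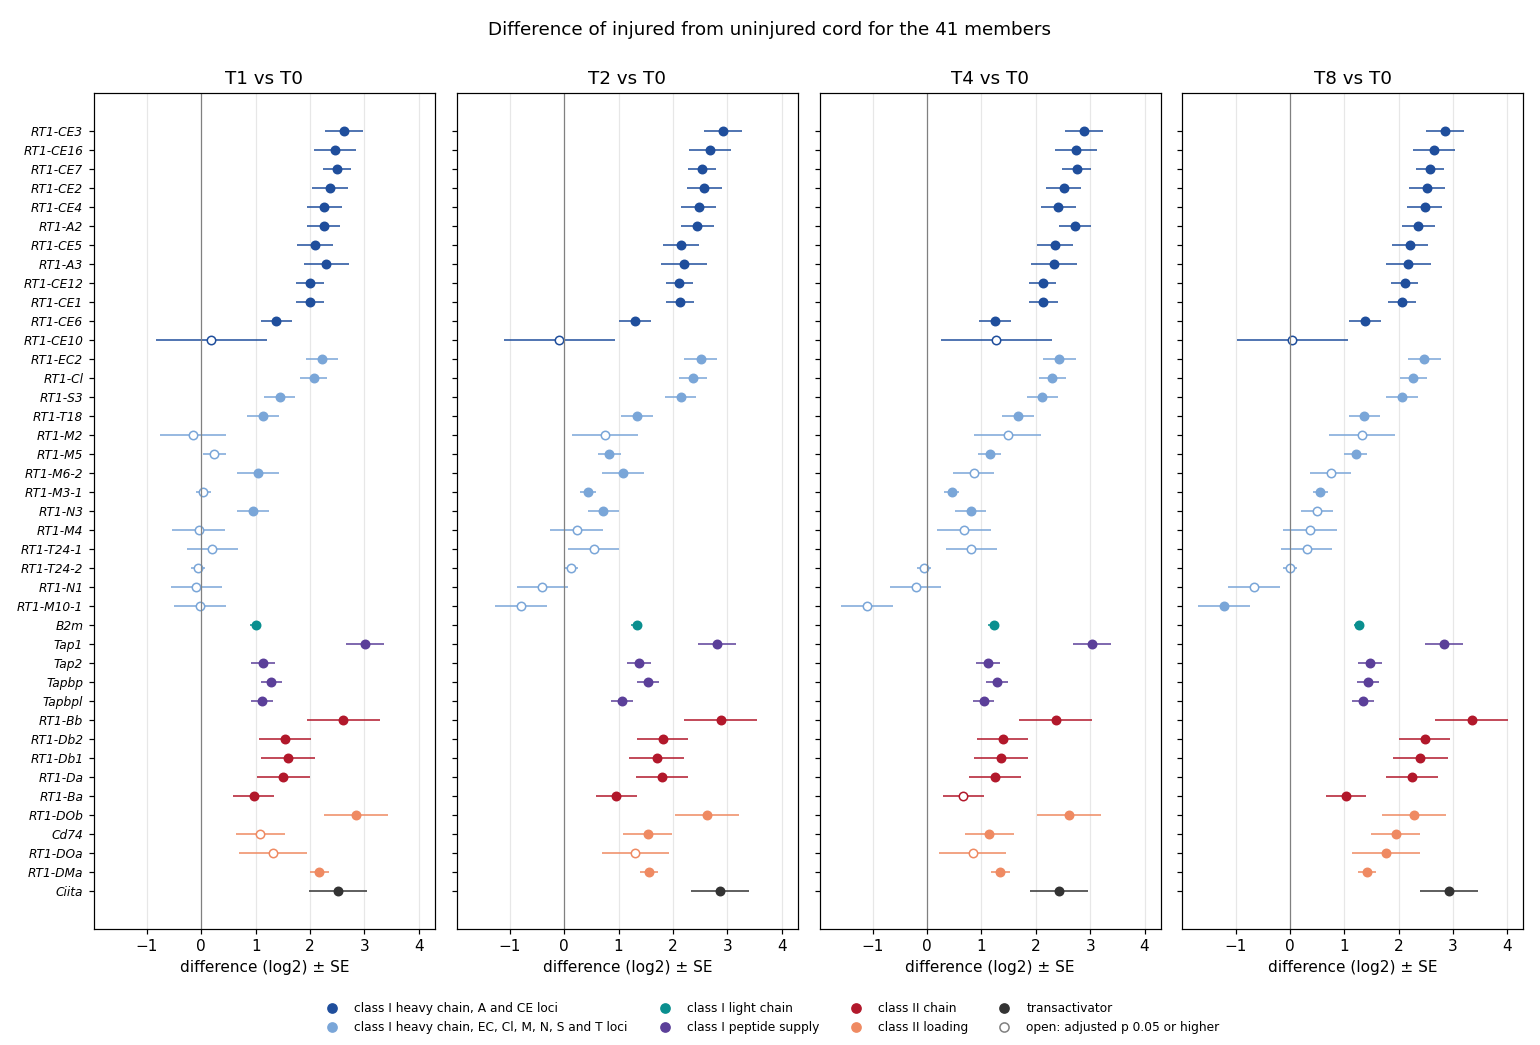
Difference from T0 in log2 units with its standard error for each of the 41 members at T1, T2, T4 and T8, coloured by role, with filled points for adjusted p under 0.05. The points of the A and CE loci, apart from RT1-CE10, lie between 1.25 and 2.92, and the M, N and T24 genes lie between -1.21 and 1.48.

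B2m, the light chain that every class I molecule needs, had a narrow spread. Its level was 15.44, 15.25, 15.52 and 15.19 in T0 and 16.37, 16.44, 16.19 and 16.39 in T1. It was 16.69, 16.75, 16.72 and 16.56 in T2, 16.44, 16.64, 16.46 and 16.77 in T4 and 16.49, 16.73, 16.62 and 16.65 in T8. Every array of T1 to T8 lay above every T0 array. The difference was 1.00 ± 0.10 (SE) at T1 (adjusted p = 2.30e-08) and 1.27 ± 0.10 at T8 (adjusted p = 6.97e-10), a 2.41-fold higher level at week 8. The 4 B2m probes gave between 0.99 and 1.50 at T8.

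Among the 12 heavy chains of the A and CE loci, 11 were upregulated at each of the 4 time points, and RT1-CE10 was called at none. Their median difference barely moved over the course (2.25 for T1, 2.33 for T2, 2.39 for T4, 2.29 for T8). RT1-CE16, a CE-locus gene, lay at 12.20, 14.82, 13.29 and 14.88 in T0 and at 15.97, 16.47, 16.06 and 16.52 in T1. It lay at 16.89, 16.34, 16.05 and 16.62 in T2, 16.74, 16.84, 16.38 and 16.17 in T4 and 16.51, 16.16, 16.82 and 16.30 in T8. The T0 arrays spanned more than the injured arrays did, and the groups did not overlap. The difference at T8 was 2.65 ± 0.38, or 6.28-fold (adjusted p = 4.49e-06). RT1-CE7 lay at 8.69, 9.48, 8.89 and 9.90 in T0 and at 11.41, 12.08, 11.12 and 12.35 in T1. It lay at 11.91, 11.63, 11.53 and 12.06 in T2, 12.04, 12.20, 12.17 and 11.57 in T4 and 11.80, 11.39, 12.27 and 11.81 in T8. Its lowest injured array was above its highest T0 array. It was 5.97-fold higher at T8 (difference 2.58 ± 0.26, adjusted p = 3.39e-08). RT1-A2, RT1-A3 and RT1-CE3, for which values at T8 against T0 were 2.36, 2.18 and 2.85, were of a like size.

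RT1-CE10 behaved otherwise from array to array. It lay at 8.20, 4.43, 7.44 and 4.43 in T0, so that replicates 1 and 3 were high where 10 of the other A and CE genes were low. It also stood at 10.48 in T4 replicate 3 and 10.77 in T1_NPC replicate 3, against 4.43 to 8.20 on all other arrays. Its difference from T0 ran from -0.09 at T2 to 1.27 at T4, with a standard error of 1.02. Its only probe (chr20:3469045-3469104 on rn4, the build of the array annotation) resembles that of RT1-A3 (chr20:5000418-5000477), with 52 identical and 5 different aligned bases. The pair is shown because the deposited values of these genes parted although their probes are so close. Capitals mark differing bases and bases beyond the alignment.
RT1-CE10 probe: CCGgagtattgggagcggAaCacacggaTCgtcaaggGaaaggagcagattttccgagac
RT1-A3 probe: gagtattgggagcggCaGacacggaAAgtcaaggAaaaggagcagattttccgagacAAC
RT1-A3 lay at 5.11, 7.16, 5.24 and 6.16 in T0 and between 6.54 and 8.86 on the injured arrays.

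The other 14 heavy chains were a mixed set, with 6, 8, 7 and 6 upregulated from the first to the last time point. RT1-EC2, RT1-Cl, RT1-S3 and RT1-T18 were called at all 4 time points, with differences at T8 of 2.47, 2.27, 2.06 and 1.37. The 2 probes of RT1-T18 gave 2.09 and 0.66 at T8. RT1-N3 was called at T1, T2 and T4, and RT1-M6-2 at T1 and T2. The 2 probes of RT1-M6-2 went apart, with 1.87 on one at T8 and -0.38 on the other, which was well above background on 1 of the 28 arrays. RT1-M5 and RT1-M3-1, nonclassical class I genes, were called from T2 onwards and not at T1. RT1-M2, RT1-M4, RT1-N1, RT1-T24-1 and RT1-T24-2 were called at no time point against T0. RT1-M10-1 fell by 2.31-fold at T8 (difference -1.21 ± 0.48, adjusted p = 0.0467), but it was well above background on only 2 T0 arrays and 1 T8 array, and the groups overlapped.

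All 4 peptide supply genes were upregulated at all 4 time points. Tap1, one chain of the peptide pump, lay at 7.75, 8.98, 7.71 and 8.98 in T0 and at 10.70, 11.97, 10.77 and 12.01 in T1. It lay at 11.44, 10.73, 10.73 and 11.77 in T2, 11.45, 11.81, 11.46 and 10.84 in T4 and 11.35, 10.52, 11.75 and 11.10 in T8. The gap between the highest T0 array and the lowest injured array exceeded the spread of T0. The difference was 3.01 ± 0.35 at T1 and 2.83 ± 0.35 at T8 (adjusted p = 2.72e-07 and 8.13e-07), or 8.04-fold and 7.10-fold. Tap2, its partner, lay at 10.68, 10.31, 10.77 and 10.52 in T0 and at 11.68, 11.93, 11.22 and 12.01 in T1. It lay at 12, 11.65, 11.84 and 12.33 in T2, 12, 11.14, 11.54 and 12.08 in T4 and 11.92, 11.99, 12.07 and 12.23 in T8. The groups did not overlap, and the rise at T8 was 1.48 ± 0.22 (adjusted p = 8.79e-06). Tapbp, which holds the empty class I molecule at the pump, lay at 9.06, 9.16, 9.30 and 9.17 in T0 and at 10.53, 10.69, 10.06 and 10.57 in T1. It lay at 10.89, 10.64, 10.66 and 10.68 in T2, 10.33, 10.43, 10.38 and 10.68 in T4 and 10.39, 10.65, 10.65 and 10.73 in T8. Its T0 arrays lay close together, below all injured arrays of the time course. The difference at T8 was 1.43 ± 0.20 (adjusted p = 2.95e-06). Tapbpl, a peptide editor related to tapasin, gave 1.35 ± 0.20 at T8 (adjusted p = 9.96e-06).

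**Figure D2:**
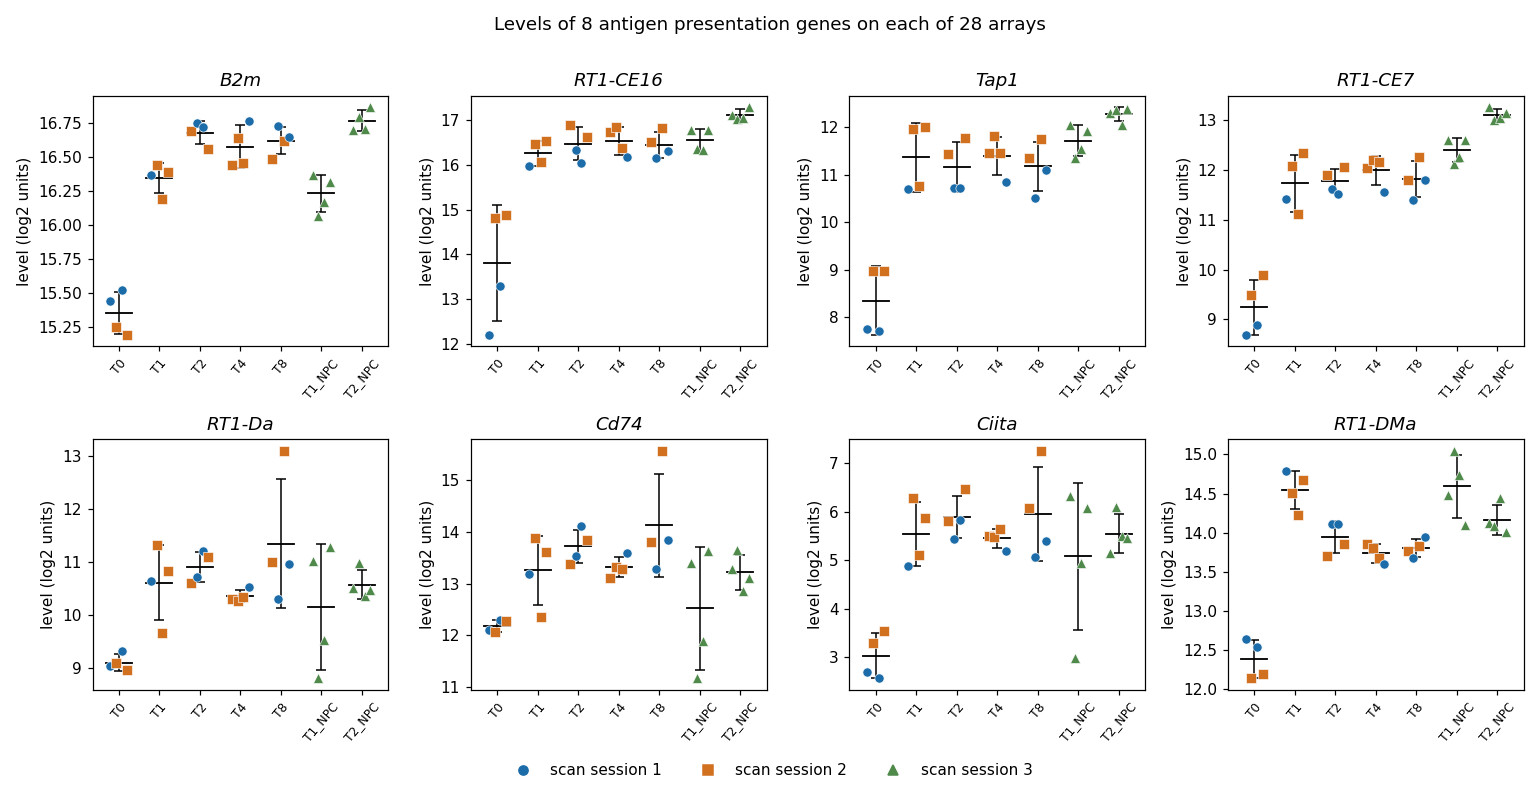
Level in log2 units of 8 members on each of the 28 arrays by group, with the group mean (line) and SD (bar) and a marker for the scan session. T0 lies lowest on average for all 8, RT1-CE16 splits by session in T0 (12.20 and 13.29 against 14.82 and 14.88), and RT1-Da, Cd74 and Ciita spread widely in T8 and T1_NPC.

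Class II chains were upregulated too, 5 of 5 at T1, T2 and T8 and 4 of 5 at T4, where RT1-Ba gave 0.67 ± 0.37 (adjusted p = 0.167). Their median difference was 1.54 and 1.80 in the first weeks (T1 and T2), 1.36 at T4 and 2.40 at T8, the last being 1.83 without T8 replicate 3. RT1-Da, the alpha chain of the D pair, lay at 9.04, 9.10, 9.31 and 8.95 in T0 and at 10.64, 11.32, 9.65 and 10.83 in T1. It lay at 10.61, 10.72, 11.20 and 11.09 in T2, 10.30, 10.26, 10.33 and 10.52 in T4 and 11, 10.30, 13.10 and 10.95 in T8. T1, T2, T4 and T8 did not overlap with T0, and T8 replicate 3 stood more than 2 log2 units above the next T8 array. The difference was 1.51 ± 0.48 at T1 (adjusted p = 0.0133) and 2.24 ± 0.48 at T8 (adjusted p = 5.99e-04), and the call at T1 was lost without T1 replicate 2. RT1-Db1, a beta chain of the D pair, lay at 7.05, 7.52, 7.44 and 7.45 in T0 and at 8.68, 9.65, 8.09 and 9.41 in T1. It lay at 8.60, 8.80, 9.22 and 9.60 in T2, 8.71, 8.68, 8.80 and 8.72 in T4 and 9.54, 8.60, 11.46 and 9.45 in T8. It followed RT1-Da, with the same array on top, and its difference at T8 was 2.40 ± 0.50 (adjusted p = 4.24e-04). RT1-Db2, another D beta chain, gave 2.48 ± 0.47 (adjusted p = 1.53e-04), or 1.88 without T8 replicate 3.

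The B pair was less well measured. RT1-Bb, the beta chain, lay at 4.90, 8.82, 8.45 and 8.78 in T0 and at 10.11, 10.96, 9.56 and 10.74 in T1. It lay at 10.51, 10.23, 10.64 and 11.09 in T2, 10.16, 9.94, 10.26 and 10.04 in T4 and 10.96, 9.94, 12.65 and 10.74 in T8. T0 replicate 1 was far below the other T0 arrays in that 1 of the 2 probes read 1.48 there and 9.91, 9.11 and 9.72 on the other three. The difference of 3.34 ± 0.67 at T8 (adjusted p = 3.00e-04) averaged 4.69 on that probe and 1.98 on the other, and it was 2.81 without T8 replicate 3. RT1-Ba, the alpha chain, lay at 3.77, 4.72, 4.46 and 4.87 in T0 and at 5.14, 5.6, 4.68 and 6.23 in T1. It lay at 5.21, 5.32, 5.74 and 5.37 in T2, 5.14, 5.13, 5.07 and 5.16 in T4 and 5.33, 4.92, 6.40 and 5.30 in T8. The difference at T8 was 1.03 ± 0.37 (adjusted p = 0.029). It too averaged unlike probes, one at -0.54 at T8 and not well above background on any array, and the other at 2.61 and well above background on all. Both are printed to show how close they are, with 49 identical, 5 different and 3 gap bases in the alignment, and capitals at the bases that differ or fall outside it.
RT1-Ba dim probe (chr20:4700973-4701032, rn4): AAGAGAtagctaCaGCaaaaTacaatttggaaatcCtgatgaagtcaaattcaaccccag
RT1-Ba bright probe (no rn4 position in the array annotation): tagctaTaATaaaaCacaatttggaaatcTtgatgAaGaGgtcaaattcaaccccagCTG
On the bright probe alone, T0 read 5.74, 7.38, 6.55 and 7.44 and T8 read 9.14, 8.24, 11.18 and 8.98. T4 read 8.49, 8.62, 8.55 and 8.61 on it, above all T0 arrays, although the averaged value was not called at T4.

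The class II loading genes rose as well, 2 of 4 at T1, 3 at both T2 and T4, and 4 at T8. Cd74, the invariant chain, lay at 12.09, 12.06, 12.30 and 12.27 in T0 and at 13.18, 13.89, 12.36 and 13.61 in T1. It lay at 13.38, 13.54, 14.12 and 13.84 in T2, 13.11, 13.32, 13.28 and 13.59 in T4 and 13.81, 13.29, 15.58 and 13.85 in T8. T0 was tight, T1 replicate 3 was close to it and T8 replicate 3 was far above it. The difference was 1.08 ± 0.45 at T1, which was not called (adjusted p = 0.0569), 1.54 ± 0.45 at T2 (adjusted p = 0.00818) and 1.95 ± 0.45 at T8 (adjusted p = 0.00118). At T4 it was 1.14 ± 0.45 (adjusted p = 0.0491), and this call, like that of RT1-Da, was lost whenever any 1 of the 8 arrays was left out, as was that of RT1-Db1 for 7 of the 8. RT1-DMa, the alpha chain of the peptide exchanger DM, lay at 12.64, 12.15, 12.54 and 12.20 in T0 and at 14.79, 14.51, 14.23 and 14.67 in T1. It lay at 13.70, 14.11, 14.11 and 13.86 in T2, 13.85, 13.81, 13.68 and 13.60 in T4 and 13.77, 13.68, 13.83 and 13.94 in T8. T1 was highest, and every array of T1 lay above every array of the later time points. The difference from T0 was 2.17 ± 0.17 at T1 and 1.42 ± 0.17 at T8 (adjusted p = 3.32e-10 and 3.75e-07).

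DO, which restrains DM, was dim. RT1-DOb, its beta chain, lay at 1.40, 4.70, 3.25 and 4.74 in T0, where 2 of 4 arrays were well above background, and at 5.78, 6.88, 5.86 and 6.97 in T1. It lay at 6.04, 5.91, 6.24 and 6.38 in T2, 6.40, 6.16, 6.35 and 5.6 in T4 and 5.82, 5.72, 6.27 and 5.40 in T8. The arrays of T1 to T8 did not overlap with T0, and the difference was 2.28 ± 0.59 at T8 (adjusted p = 0.00308). RT1-DOa, the alpha chain, lay at 3.59, 2.87, 2.77 and 1.26 in T0, well above background on none of them, and at 3.52, 4.61, 3.50 and 4.14 in T1. It lay at 3.64, 3.56, 3.85 and 4.67 in T2, 3.87, 2.91, 3.03 and 4.05 in T4 and 4.14, 3.94, 5.65 and 3.82 in T8. At T8, where 3 of 4 arrays measured it, the level was at least 1.29-fold higher than in T0 (adjusted p = 0.0258), a bound against the lowest signal that counted as well above background.

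Ciita, the master regulator of class II transcription, was well above background on none of the T0 arrays and on all 16 injured arrays of the time course. It read 2.69, 3.29, 2.58 and 3.54 in T0 and 4.88, 6.29, 5.11 and 5.86 in T1. It read 5.81, 5.43, 5.83 and 6.47 in T2, 5.5, 5.47, 5.64 and 5.18 in T4 and 6.07, 5.07, 7.26 and 5.39 in T8. All arrays of T1 to T8 lay above all T0 arrays, with T8 replicate 3 highest. By the bound used for RT1-DOa, the level was at least 2.85-fold higher at T1, 3.63-fold at T2, 2.68-fold at T4 and 3.79-fold at T8 (adjusted p = 4.03e-04, 1.09e-04, 7.14e-04 and 8.81e-05). The bound at T8 was 2.80-fold without replicate 3. The X and Y boxes shown above, through which Ciita acts, mark RT1-Da, RT1-Db1 and RT1-Db2. The differences of these 3 genes from T0 at T8 were 2.24, 2.40 and 2.48, or 1.65, 1.83 and 1.88 without replicate 3. Genes with an exact match to a single box rose as well, with RT1-Bb at 3.34, RT1-DOb at 2.28 and RT1-Ba at 1.03. Without replicate 3 these were 2.81, 2.13 and 0.73, the last not called. RT1-DOa, with the Y box alone, was at least 1.29-fold higher, a call lost without replicate 3. Cd74 and RT1-DMa, with no exact match to either box, rose too, by 1.47 and 1.41 without replicate 3. Whether Ciita drove any of these genes was not tested.

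**Figure D3:**
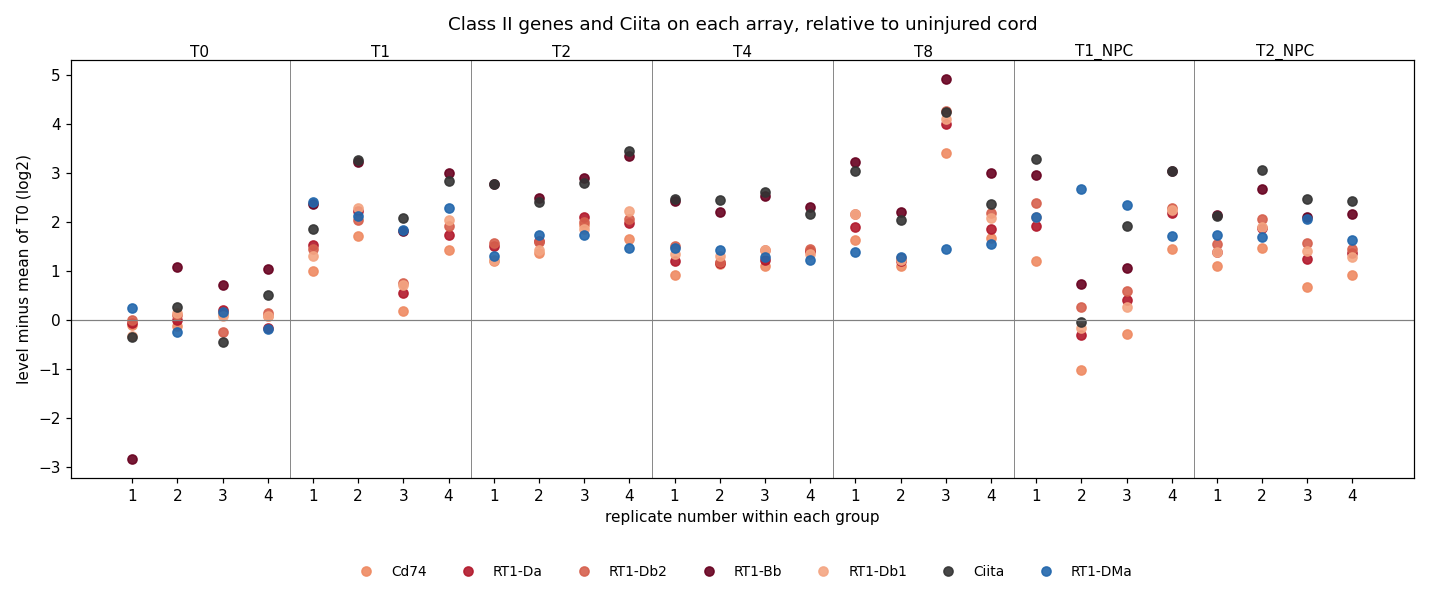
Level minus the T0 mean in log2 units for 6 class II genes and Ciita on each array, with replicate numbers within groups on the horizontal axis (the numbers have no order). T8 replicate 3 is the highest array for Cd74, RT1-Da and Ciita, T1_NPC replicate 2 lies near or below the T0 mean for all but RT1-DMa and RT1-Bb, and RT1-DMa is highest at T1 and in T1_NPC.

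A pair of arrays stood apart in the class II genes. T8 replicate 3 was the highest of all 28 arrays for 7 members, which were 4 of the 5 class II chains, 2 of the 4 loading genes and Ciita. Its summed levels of marker genes lay inside the range of the injured arrays. The 11 microglia and macrophage markers summed to 147291 intensity units, the highest of T8 and rank 17 of 28 from the highest. The 10 T cell markers summed to 2339, the lowest of T8 and rank 20, and the 4 B cell markers to 5074, rank 17. Without this array, 30 members were called at T8 against T0, and RT1-Ba, RT1-DOa and RT1-M10-1 were lost. Cd74 was then 1.47 ± 0.42 above T0 (adjusted p = 0.00783), RT1-Da 1.65 ± 0.42 (0.00322 by the same adjustment) and RT1-Db1 1.83 ± 0.45 (0.00253). T1_NPC replicate 2 was the lowest of the 24 injured arrays for 16 members, among them all 5 class II chains, Cd74, B2m and Ciita. It was also the lowest of its group in markers, with 103926 units for microglia and macrophages against 190458 to 209572 on the other three, 982 for T cells against 5396 to 6461 and 1776 for B cells against 6620 to 8864. Of the 4 B cell markers, 3 were well above background on no T1_NPC array and 1 on all of them. The B cell sum thus rested mainly on 1 gene. The part of any of these cell types in the low class II levels of T1_NPC replicate 2 was not tested.

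Between injured time points few members were called. No member was called for T2 against T1 (background 0.815% higher and 0.665% lower, 5 members at an unadjusted p under 0.05). With scan session as a fixed block this count was 4 (3 higher and 1 lower), and with slide as a fixed block 3. The background shares above belong to the fit without a block, so the blocked counts cannot be set against them. No member was called for T4 against T2 (0.0507% and 0.0254%, 0 members unadjusted) or for T8 against T4 (0.0874% and 0.00282%, 1 member unadjusted). Over the whole course, T8 against T1, 2 members were higher and 1 was lower, where 5.45% of all features were higher and 4.42% lower. A share of 3 in 41 was close to that background.

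The first of these was RT1-M5. It lay at 6.90, 6.67, 6.84 and 6.80 in T0 and at 7.04, 7.05, 6.87 and 7.22 in T1. It lay at 7.81, 7.68, 7.41 and 7.64 in T2, 8.26, 7.91, 7.78 and 7.87 in T4 and 7.94, 7.83, 8.24 and 8.05 in T8. T1 overlapped with T0 and lay below all later arrays. T8 was 0.97 ± 0.21 above T1 (adjusted p = 0.00334). The second, RT1-M3-1, lay at 12.61, 12.60, 12.73 and 12.68 in T0 and at 12.65, 12.75, 12.65 and 12.73 in T1. It lay at 13.39, 12.94, 13.03 and 13.04 in T2, 13.17, 13.06, 13.04 and 13.15 in T4 and 13.18, 13.29, 13.21 and 13.19 in T8. Its step was small but larger than the spread within either group, with T8 0.52 ± 0.14 above T1 (adjusted p = 0.0181). This call was lost without T8 replicate 2. The third, RT1-DMa, went the other way from the values above, with T8 at -0.75 ± 0.17 relative to T1 (adjusted p = 0.00432). It therefore stayed 2.68-fold above T0 at week 8 after 4.49-fold at week 1.

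The T0 arrays of the first scan session (replicates 1 and 3) and of the second (replicates 2 and 4) differed in class I. Of the 12 A and CE genes, 10 were higher on both T0 arrays of the second session, by 0.90 (RT1-CE7) to 2.10 (RT1-CE16) on the log2 scale, RT1-CE6 overlapped, and RT1-CE10 was lower by 3.39. The same split was 2.40 for RT1-DOb, -0.26 for B2m and -0.15 for RT1-Da. It was 2.13 for RT1-Bb, where 1 of its 2 probes read 1.48 on T0 replicate 1. The other RT1-Bb probe overlapped, at 8.31 and 7.78 in the first session and 7.73 and 7.83 in the second. The split was not confined to T0. RT1-CE16 in T2 read 16.89 and 16.62 in the second session against 16.34 and 16.05 in the first. In T8 it read 16.51 and 16.82 against 16.16 and 16.30. Tap1 in T2 read 11.44 and 11.77 against 10.73 on both first-session arrays. B2m in T2 was lower in the second session, at 16.69 and 16.56 against 16.75 and 16.72. What set the arrays of the sessions apart was not tested. Differences from T0 were therefore also taken within each session. For the A and CE genes the median at T2, with 2 against 2 arrays in each session, was 2.63 in the first session and 1.94 in the second. At T8, again with 2 against 2, it was 2.66 and 1.89. For the class II chains it was 1.78 and 3.02 at T8, where T8 replicate 3 belongs to the second session. All members called at T2 (33), T4 (31) and T8 (33) had the same sign in both sessions, as had 29 of the 30 called at T1. The first session held 1 injured array at T1 and 1 at T4. These members had been called on the arrays of both sessions together, so like signs were likely beforehand and give no separate support.

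**Figure D4:**
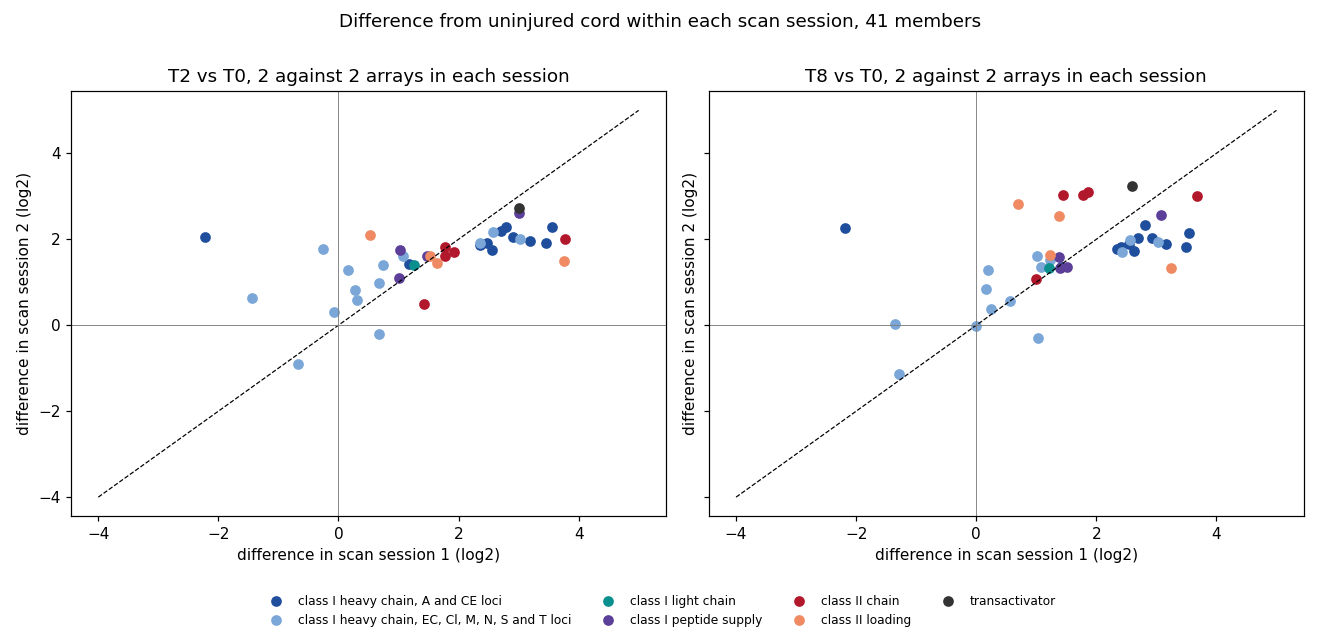
Difference from T0 (log2) in the first scan session against that in the second for the 41 members, at T2 and at T8 with 2 against 2 arrays each, coloured by role, with the line of equality dashed. The A and CE genes except RT1-CE10 and, at T2, RT1-CE6 lie below the line, with larger differences in the first session, and at T8 RT1-Da, RT1-Db1 and RT1-Db2 lie above it.

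The rest of the presentation pathway was read from lists of genes outside the members. Of 15 further class I pathway genes, 13 were higher at T1 and 14 at T8, and none was lower at either. Psmb9, an immunoproteasome subunit, gave 2.37 ± 0.27 at T8 (adjusted p = 2.44e-07), and Azgp1, a class I-like glycoprotein, was at least 3.59-fold higher (adjusted p = 5.70e-06), a bound since no T0 array was well above background. Of 13 class II pathway genes, 7 were higher and 2 lower at T8. The higher ones included Ifi30, a thiol reductase of the endocytic route, at 2.50 ± 0.13 (adjusted p = 1.06e-12), and Lgmn, an asparaginyl protease, at 2.04 ± 0.20 (adjusted p = 2.54e-08). The lower ones, Rfx5 at -0.49 ± 0.14 and Nfyb at -0.26 ± 0.10 (adjusted p = 0.00548 and 0.0396), encode factors that bind the X and Y boxes, and the other 4 of the list were not called. Relative to T1, 4 of these 13 genes were lower at T8 and none was higher.

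Interferon-gamma is the classical inducer of Ciita and of class I. Of 9 genes of its route, 8 were higher at T1 and at T8 and none was lower. Irf1, a transcription factor, gave 1.56 ± 0.26 at T8 (adjusted p = 4.28e-05), and Ifngr1, a receptor chain, gave 1.45 ± 0.20 (adjusted p = 3.51e-06). Ifng itself was well above background on no array of the time course. Of 5 costimulation genes, which give T cells the second signal, 4 were higher at T1 and 3 at T8. Cd86 gave 2.81 ± 0.23 and Cd40 gave 2.10 ± 0.15 at T8 (adjusted p = 1.23e-09 and 8.67e-11). The median differences of the 4 lists at T8 were 1.09 (class I pathway), 0.46 (class II pathway), 0.64 (interferon-gamma route) and 1.39 (costimulation), against -0.04 over all features.

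Markers of cells that can carry these molecules were read beside the members, and the lists did not move alike. Of 11 microglia and macrophage markers, 9 were higher at T8, with Cd68 at 6.45 ± 0.16 and Mrc1 at 3.83 ± 0.27 (adjusted p = 3.00e-18 and 1.07e-10). Their summed level ran from 30265 to 37022 intensity units in T0, 187778 to 219590 in T1, 173102 to 192556 in T2, 125550 to 152118 in T4 and 126328 to 147291 in T8. The sum was thus lower at T8 than at T1. As a median log2 difference of T8 from T1, these 11 markers gave -0.72, with 2 called lower. The 41 members gave 0.19 by that measure, with 2 called higher and 1 lower. All 10 T cell markers were higher at T8, with a median difference of 1.99. Cd8a stood far above that median at 6.44 ± 0.54, and Cd3e, well above background on no T0 array, was at least 1.40-fold higher (adjusted p = 2.22e-09 and 1.50e-05). Of the 10 T cell markers, 4 were well above background on no T0 array. The sum of the 10 T cell markers ran from 510 to 652 in T0, 2613 to 5691 in T1, 2831 to 5152 in T2, 2106 to 2547 in T4 and 2339 to 2965 in T8. The 4 B cell markers had a median difference of -0.33 at T8, where only Blnk was higher at T8, at 2.48 ± 0.32 (adjusted p = 1.40e-06), and Ms4a1, which defines the type, was well above background on no array of T0 or T8. The B cell sum ran from 734 to 1048 in T0 and from 3809 to 5722 in T8. In each of these groups 2 of the 4 markers were well above background on no array and 1 on all. Of the 4 dendritic cell markers, Ccr7 and Batf3 were higher at T8, the first by at least 1.13-fold, since no T0 array measured it, and the second at 1.21 ± 0.27 (adjusted p = 0.0274 and 7.75e-04), and Flt3 was lower, at -1.01 ± 0.17 (adjusted p = 3.07e-05). That sum ran from 271 to 311 in T0 and from 357 to 457 in T8. The part of any of these cells in the rise of the members was not tested.

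After transplantation, the question is whether NPCs changed antigen presentation in the injured cord. For T1_NPC against T1 no member was called (background 5.45% higher and 6.46% lower, 1 member at an unadjusted p under 0.05). For T2_NPC against T2, RT1-CE7 and Tap1 were upregulated and no member was downregulated (4.62% and 4.85%, 8 members unadjusted). The share of 2 in 41 was close to the background. On the 12 undisputed arrays, with 2 of T2, 14 members were higher and none lower, where 20.9% of all features were called in either direction. Those 2 T2 arrays, replicates 2 and 3, were both of the first scan session. Tap1 lay at 10.73 on both of them, against 11.44 and 11.77 on T2 replicates 1 and 4. RT1-CE16 lay at 16.34 and 16.05 there, against 16.89 and 16.62, whereas B2m was not lower on them. The difference between the transplantation effects was called for no member (0.127% and 0.172%, 1 member unadjusted). Transplantation and slide cannot be told apart in any of these.

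RT1-CE7 lay at 12.61, 12.13, 12.27 and 12.61 in T1_NPC and at 13.27, 13.01, 13.04 and 13.15 in T2_NPC. All T2_NPC arrays were above all arrays of the 6 other groups. The difference from T2 was 1.34 ± 0.26, or 2.53-fold (adjusted p = 0.00208), and that of T1_NPC from T1 was 0.66 ± 0.26 (adjusted p = 0.0953). The transplantation effects differed by 0.67 ± 0.36, which was not called (adjusted p = 0.512). Tap1 lay at 12.05, 11.35, 11.53 and 11.92 in T1_NPC and at 12.29, 12.36, 12.05 and 12.38 in T2_NPC. The T2_NPC arrays were close together and above all T2 arrays. The difference from T2 was 1.1 ± 0.35, or 2.15-fold (adjusted p = 0.0499), just inside the threshold. This call was lost when any 1 of 7 of the 8 arrays was left out, all but T2 replicate 4, and the adjusted p was 0.06 after scaling to the 75th percentile.

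The class I heavy chains of the A and CE loci all lay above T2 on average in T2_NPC, and the peptide supply genes lay on both sides. The 12 A and CE genes had a median difference of 0.58, from 0.26 to 1.34, and the other 14 heavy chains had 0.46, from -0.65 to 1.36, where all features had -0.03. For 14 of the 41 members all T2_NPC arrays lay above all T2 arrays, against 9.97% of all features, and for 2 all lay below, against 9.40%. Of the 14, 9 were A and CE genes. RT1-CE16, at 17.12, 17.03, 17.05 and 17.29, was 0.65 ± 0.38 above T2 and was not called (adjusted p = 0.304). RT1-T24-1 had 1.36 ± 0.47 (adjusted p = 0.0672). B2m, at 16.37, 16.07, 16.17 and 16.32 in T1_NPC and 16.70, 16.80, 16.71 and 16.87 in T2_NPC, overlapped with T1 and with T2, at -0.12 ± 0.10 and 0.09 ± 0.10. Tap2, at 12.04, 11.96, 11.49 and 11.62 in T2_NPC and 11.85, 10.89, 11.56 and 11.64 in T1_NPC, was -0.18 ± 0.22 relative to T2 and -0.23 ± 0.22 relative to T1. Tapbp, at 10.89, 10.77, 10.62 and 10.69 in T2_NPC and 10.67, 9.25, 10.23 and 10.44 in T1_NPC, was 0.02 ± 0.20 and -0.31 ± 0.20. Neither differed beyond the spread between arrays, and T1_NPC replicate 2 was the low array of both.

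**Figure D5:**
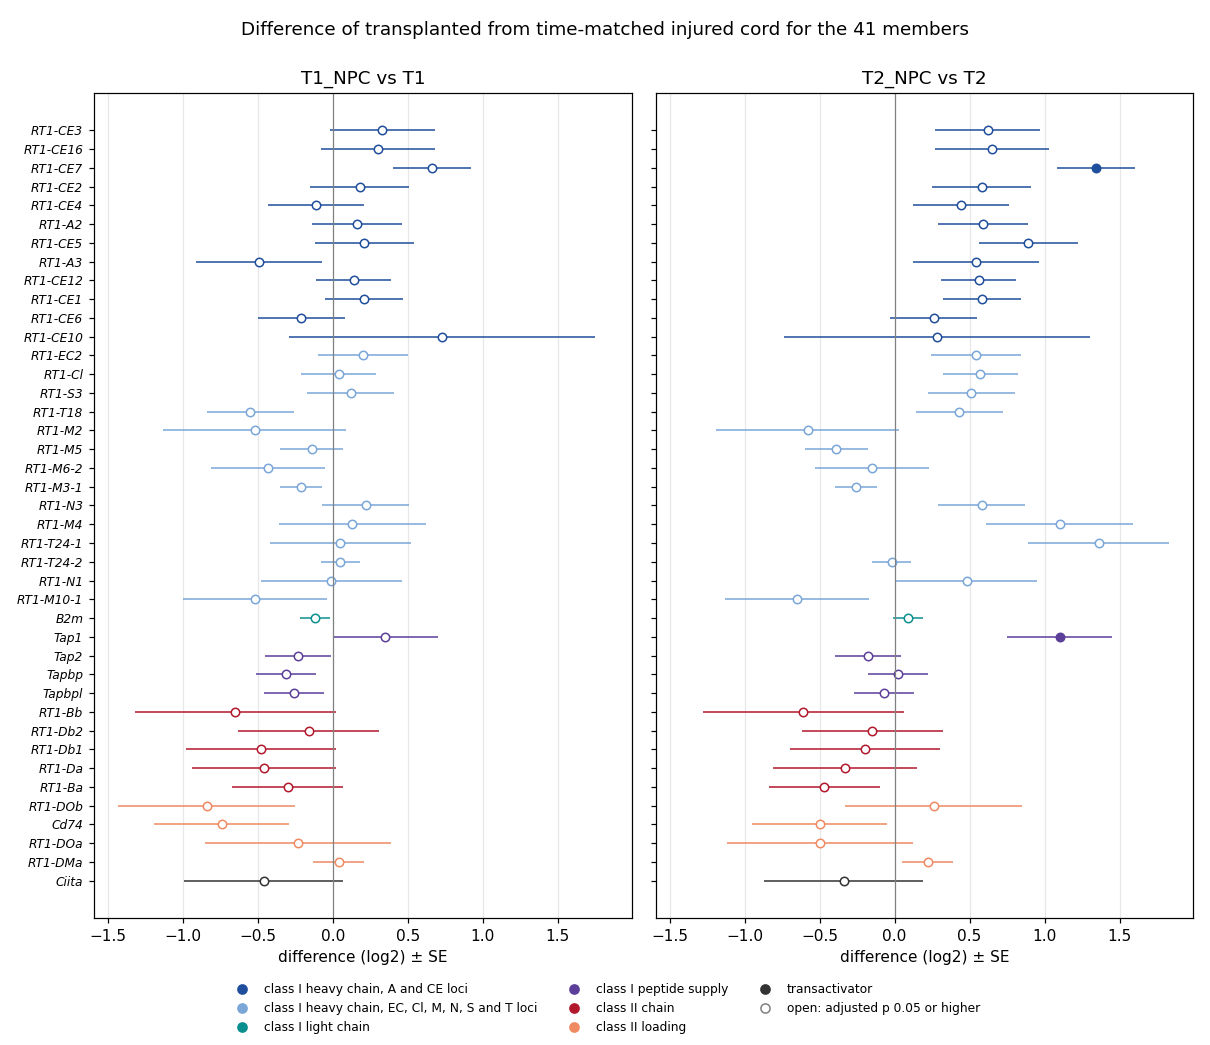
Difference (log2, with standard error) of T1_NPC from T1 and of T2_NPC from T2 for each of the 41 members by role, with filled points for adjusted p under 0.05. Only RT1-CE7 (1.34) and Tap1 (1.1) are filled, both at T2_NPC, where the A and CE genes all lie above 0 and the 5 class II chains all lie below it.

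The 5 class II chains lay below their time-matched injured groups on average, the loading genes lay on both sides, and none of them was called. The chains had a median difference of -0.46, from -0.65 to -0.16, at T1_NPC and of -0.33, from -0.61 to -0.15, at T2_NPC. Without T1_NPC replicate 2 the first median was -0.03, from -0.25 to 0.21. T1_NPC replicate 3 was low too, below every T1 array for all 5 chains, so the lower level did not rest on 1 array alone. RT1-Da lay at 11.01, 8.80, 9.52 and 11.28 in T1_NPC and 10.50, 10.97, 10.35 and 10.46 in T2_NPC. T1_NPC fell into a high and a low pair of arrays, and its difference from T1 was -0.46 ± 0.48. RT1-Db1 showed that pattern as well, with 9.46, 7.2, 7.63 and 9.62 in T1_NPC and 8.75, 9.27, 8.77 and 8.65 in T2_NPC. RT1-Bb lay at 10.70, 8.48, 8.81 and 10.77 in T1_NPC and 9.89, 10.41, 9.85 and 9.91 in T2_NPC. RT1-Ba lay at 6.42, 4.31, 4.47 and 5.25 in T1_NPC and 4.95, 5.17, 4.76 and 4.90 in T2_NPC, and all 4 T2_NPC arrays were below all T2 arrays, with a difference of -0.47 ± 0.37 (adjusted p = 0.484).

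Among the loading genes, Cd74 lay at 13.39, 11.16, 11.89 and 13.63 in T1_NPC and 13.28, 13.66, 12.85 and 13.10 in T2_NPC. Replicates 2 and 3 of T1_NPC were below every T0 array. Without replicate 2 the T1_NPC mean was -0.29 relative to T1. With it, its differences were -0.74 ± 0.45 and -0.50 ± 0.45 (adjusted p = 0.306 and 0.552). RT1-DMa did not follow the other class II genes. It lay at 14.48, 15.05, 14.74 and 14.10 in T1_NPC, highest on replicate 2 where Cd74 was lowest, and at 14.12, 14.08, 14.45 and 14.01 in T2_NPC, and its differences were 0.04 ± 0.17 and 0.22 ± 0.17. RT1-DOb lay at 6.39, 3.42, 5.72 and 6.58 in T1_NPC and 6.30, 6.61, 6.20 and 6.52 in T2_NPC. RT1-DOa lay at 4.56, 2.87, 2.69 and 4.74 in T1_NPC and 3.27, 5.14, 3.77 and 1.55 in T2_NPC, well above background on 2 and 1 arrays. Ciita read 6.32, 2.98, 4.94 and 6.07 in T1_NPC, where replicate 2 was not well above background, and 5.14, 6.09, 5.5 and 5.45 in T2_NPC. Its differences were -0.46 ± 0.53 and -0.34 ± 0.53, within the spread of the arrays, and the first became 0.24 without replicate 2. The members called between injured time points were not called after transplantation. RT1-M5 lay at 7.28, 7.36, 7.12 and 5.85 in T1_NPC and 7.11, 7.23, 7.27 and 7.35 in T2_NPC, and RT1-M3-1 at 12.72, 11.83, 12.64 and 12.74 and 12.86, 12.68, 13.03 and 12.80. RT1-M5 in T2_NPC lay below all T2 arrays (difference -0.39 ± 0.21, adjusted p = 0.264).

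Most members were also higher in the transplanted groups than in uninjured cord. For T1_NPC against T0, 25 members were higher and none lower (background 22.8% and 29.9%), and without T1_NPC replicate 2 the count was 28, with RT1-Ba, RT1-Da and RT1-Db1 gained. Of the 5 class II chains, 2 were called there with all arrays. For T2_NPC against T0, 31 were higher and 1, RT1-M10-1, was lower (21.2% and 26.5%). RT1-M10-1 was well above background on 2 T0 arrays and on no T2_NPC array. Its call was lost without T0 replicate 2 or T2_NPC replicate 3. By role, the A and CE genes had medians of 2.26 in T1_NPC and 2.98 in T2_NPC, and the class II chains 1.11 and 1.50. RT1-CE7 and Tap1 were 14.7-fold and 15.1-fold above T0 in T2_NPC. Ciita was at least 2.07-fold higher in T1_NPC and 2.87-fold in T2_NPC.

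Few pathway genes outside the members were called after transplantation. Socs1, a feedback inhibitor of the interferon-gamma route, was higher in both, by 0.82 ± 0.15 in T1_NPC and 0.51 ± 0.15 in T2_NPC (adjusted p = 0.00118 and 0.0341). Ifng was called higher in T1_NPC (0.63 ± 0.18, adjusted p = 0.0206), although no array of either group was well above background. Calr, an endoplasmic reticulum chaperone of class I, was higher in T2_NPC by 0.64 ± 0.17, and Cd1d1, a lipid-presenting relative of class I, was lower, at -0.43 ± 0.11 (adjusted p = 0.0207 and 0.0127). The class II pathway and costimulation lists had no call in either comparison. Of the microglia and macrophage markers, Mrc1 was higher by 0.86 ± 0.27 and P2ry12 was lower, at -1.06 ± 0.31, in T1_NPC (adjusted p = 0.0396 and 0.0271), and none was called in T2_NPC. Their sum ran from 103926 to 209572 in T1_NPC and from 162628 to 175864 in T2_NPC. No T cell, B cell or dendritic cell marker was called in either, and the T cell sum ran from 982 to 6461 in T1_NPC and from 2431 to 4073 in T2_NPC. The part of these cells in the members' values after transplantation was not tested.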

How the data were processed

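Cy3-labelled RNA was hybridised to Agilent rat arrays read with Feature Extraction 10.7.1.1. The authors deposited, per scanner output, intensity values per spot, and a value table of log2 values after quantile normalization, in which all columns share the same sorted values. Groups came from the labels. Replicate spots of a probe, then probes of the same gene name, were averaged into 35469 features, with no filter on dim probes. Group means over all 28 arrays were estimated in limma 3.58.1 (R 4.3.3, 2.26 prior degrees of freedom), with Benjamini-Hochberg adjustment over all features, and p-values measure the spread between these arrays. Each array's background flags, slide and session came from the scanner output whose ranks match its column (Spearman 1.0000, next best at most 0.993). On data simulated for T1 against T0 over 35469 features, 88.0% of log2 changes of 2 and 53.0% of changes of 1 were called, and 6.00% of calls were false. Far fewer features were changed in the simulation than were called in the cords at T1, so its rates need not hold for the real comparison. The number of arrays limits the precision.

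Members and lists were chosen with earlier results of these data known. By rule, values on every array were given for 13 genes central to the pathway and for members called between injured time points or after transplantation, and for each list the 2 largest called changes at T8 and the genes called after transplantation, except for some list genes that are not reported here. Other genes were named after their values were seen. The lists covered the class I pathway, the class II pathway, the interferon-gamma route, costimulation, microglia and macrophages, T cells, B cells, dendritic cells, NK cells, endothelial cells, neurons, oligodendrocytes and astrocytes. Alternatives were the scanner outputs matched to the value table or under their deposited samples, the 12 undisputed arrays, 75th percentile scaling, normexp (offset 50, on median signals rather than means), dim probes left out, the brightest probe, trend and robust eBayes, only the groups compared, slide or session as a block, within sessions, the replicate block, a 2-fold minimum and each array left out.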

Additional observations from a re-analysis of the deposited data

Results flagged for a closer look

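Of 112 groups of 4 arrays tested, 5 held an array whose gap to its nearest neighbour exceeded Dixon's 95% critical share of the group's range, and chance flags about 1 in 20 groups. RT1-Bb in T0 replicate 1 lay at 4.90, below the next lowest at 8.45, with a gap of 0.91 of the range. RT1-Bb in T2_NPC replicate 2 lay at 10.41, above 9.91 (0.89). RT1-M3-1 in T1_NPC replicate 2 lay at 11.83, below 12.64 (0.89). RT1-M5 in T1_NPC replicate 4 lay at 5.85, below 7.12 (0.84). Tapbp in T2 replicate 1 lay at 10.89, above 10.68 (0.86).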

How the results depend on the processing

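The scaling of the arrays, the probe summary, the eBayes settings and the block for session or slide left the member counts of the 4 time points relative to T0 within 1.5 times of those given, whereas the sample names did not. When the scanner outputs kept the samples they were deposited under, the number of members called was 0 at T1, T2, T4 and T8 relative to T0, and 0 for T8 against T1, for T2_NPC against T2 and for T1_NPC against T0, and 14 for T2_NPC against T0. No share of all features is given here beside these counts. Under that setting RT1-M5 turned to -0.14 at T2 and -0.20 at T4 against T0, and RT1-DMa to 0.23 for T8 against T1. On the 12 undisputed arrays 14 members were called for T2_NPC against T2 (and 20.9% of all features) and 1 for T2 against T1, and no value could be had for T1_NPC.

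For T2 against T1, where no member was called, the count became 2 with normexp, 4 with session and 3 with slide as a fixed block and 1 with slide as a random block. For T8 against T1 it was 0 with a 2-fold minimum and 1 within the first session. For T1_NPC against T1 it was 1 with normexp and 1 with 75th percentile scaling. For T2_NPC against T2 it was 5 with only the compared groups in the fit, 1 with 75th percentile scaling and 1 with slide as a random block. The shares of all features called under these settings are not given here, so these counts have no background beside them. Slide and session as fixed blocks and the within-session values could not be fitted for transplantation. Scaling to the 75th percentile moved the median of all features for T1 against T0 from -0.10 to -0.27, for T2 against T1 from 0.00 to 0.12, for T8 against T1 from 0.00 to 0.15, for T1_NPC against T1 from -0.01 to 0.11, for T1_NPC against T0 from -0.07 to 0.04 and for the transplant difference from 0.00 to -0.14. Among calls over all features the share that were higher moved from 45.8% to 71.3% for T1_NPC against T1, from 55.0% to 67.9% for T2 against T1, from 66.7% to 40.0% for T4 against T2, from 55.2% to 65.9% for T8 against T1 and from 42.5% to 4.81% for the transplant difference. The cause of these moves was not tested.

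Leaving out 1 array at a time gave 26 to 31 members for T1, 29 to 32 for T2, 27 to 29 for T4 and 30 to 33 for T8 against T0, 0 to 1 for T2 against T1, 0 to 0 for T4 against T2 and for T8 against T4, and 2 to 3 for T8 against T1. The lowest count at T1 came without T1 replicate 2, when RT1-Ba, RT1-Da, RT1-M6-2 and RT1-N3 were lost. The lower call of RT1-M10-1 at T8 was lost without any 1 of 5 of the 8 T0 and T8 arrays, and no member was lower there with normexp, 75th percentile scaling or the session or replicate block. After transplantation the counts were 0 to 1 for T1_NPC against T1, where RT1-CE7 was called without T1 replicate 4, 1 to 2 for T2_NPC against T2, 23 to 28 and 30 to 31 for T1_NPC and T2_NPC against T0 and 0 to 0 for the transplant difference.

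Same-numbered arrays of different groups did not deviate together (84 pairs, correlations from -0.34 to 0.30, median 0.00, 19 above 0.1), so the replicate numbers do not pair the samples. With the replicate block, 1 member was called for T2_NPC against T2 (Tap1 was lost, adjusted p = 0.0593), and the block gave 29, 31 and 29 members for T1, T2 and T4 against T0.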

Other observations

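Markers of other cells of the cord were read on the same arrays. Of 9 neuron markers, 8 were lower at T8, with Snap25 at -2.62 ± 0.40 and Slc17a6 at -2.59 ± 0.39 on the log2 scale (limma, adjusted p = 1.36e-05 and 9.87e-06). Of 7 oligodendrocyte markers, 5 were lower at T8, with Mog at -1.39 ± 0.15 and Mobp at -1.11 ± 0.21 (adjusted p = 8.83e-08 and 1.36e-04). Mbp and Mobp were higher in T2_NPC than in T2, by 1.43 ± 0.27 and 0.70 ± 0.21 (adjusted p = 0.00182 and 0.0349). Of 7 astrocyte markers, Gfap was higher at 1.75 ± 0.29 and Slc1a2 lower at -0.54 ± 0.21 at T8 (adjusted p = 3.09e-05 and 0.0412). Of 6 endothelial markers, Cdh5 and Vwf were higher at T8, at 1.68 ± 0.23 and 0.57 ± 0.19 (adjusted p = 3.36e-06 and 0.0209), and Cldn5 was higher in both transplanted groups, by 0.51 ± 0.16 and 0.52 ± 0.16 (adjusted p = 0.0405 and 0.045). Of 5 NK cell markers, 3 were higher at T2 and none was called at T8, where their median difference was 0.70.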
